A study of Mus musculus with 4 samples.

Results

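The canonical TGF-beta pathway was followed through 10 genes: the ligands Tgfb1 and Tgfb2, the receptors Tgfbr1 and Tgfbr2, the SMAD proteins Smad2, Smad3, Smad4 and Smad7, the SMAD repressor Skil and the target gene Tgfbi. They were chosen by gene symbol, as every probe set annotated with one of these symbols, which gave 28 probe sets of 10 genes among 18193 genes on the array. RNA came from mouse primary keratinocytes, the epithelial cells of the epidermis, taken from newborn C57BL/6 animals and grown in culture. The 4 groups were p38a-KO cells 4 h after ultraviolet B (UVB) at 75 mJ/cm2, unirradiated p38a-KO cells, wild-type (WT) cells 4 h after the same dose, and unirradiated WT cells. Each group is 1 Affymetrix array, so differences between arrays cannot be checked against replicates, and precision is limited by how few arrays there are. The labels do not say how the deletion was made, in which cells it acts or how many animals were pooled, and they name no mock-irradiated culture at 4 h, so a UVB difference also holds any effect of time and handling.

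TGF-beta ligands bind the type II receptor Tgfbr2, which recruits and phosphorylates the type I receptor Tgfbr1. The type I receptor then phosphorylates Smad2 and Smad3, which join Smad4 and act on target genes in the nucleus, while Smad7 blocks the receptors and SnoN, the product of Skil, represses SMAD-driven transcription. In epidermis the pathway is known for stopping keratinocyte growth and for its role in wound repair and matrix production.

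The deletion could not be read from the arrays. The brightest probe set of Mapk14, which encodes p38alpha, gave 646.8 units after UVB and 1449 units without irradiation in KO-labelled cells, against 292.5 units after UVB and 985.4 units without irradiation in WT cells, and 4 of its 5 probe sets brighter than the floor on average were higher in KO-labelled cells in both conditions. The position of the probe sets relative to the deleted part is not given in the sources used here, so this settles nothing about the labels, and the samples are called KO-labelled throughout. Signals are MAS5 units on a linear scale, which are not comparable between probe sets. The floor for low values was 24.9 units, the median of the probe sets' mean signals, and 43.6% and 57.9% of probe sets reached it in KO-labelled cells after UVB and without irradiation, against 43.1% and 54.4% in WT cells. The 2% trimmed mean of the array was 116.4 and 198.7 units in KO-labelled cells after UVB and without irradiation, against 112.4 and 177.6 units in WT cells, while the 18 spike-in probe sets had median log2 differences after UVB of 0.12 in KO-labelled and 0.01 in WT cells. All 11 keratinocyte markers measured stood at or above the floor on all 4 arrays. Of the leukocyte markers 5 of 7, and of the endothelial markers 2 of 4, were below it on every array.

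Promoter sequence is shown for both receptors, which carry the UVB result, and for Tgfbi, which carries the genotype result. The windows run from 250 bases before to 50 bases after the gene start in RefSeq annotation, are written 5′ to 3′ on the gene's strand, and have in capitals each match, on either strand, to CAGAC (the core of a SMAD-binding element, read GTCTG on the other strand) or to GGGCGG (a GC box, read CCGCCC on the other strand).
Tgfbr1 promoter, GRCm38.p6 chr4:47352972-47353271, plus strand: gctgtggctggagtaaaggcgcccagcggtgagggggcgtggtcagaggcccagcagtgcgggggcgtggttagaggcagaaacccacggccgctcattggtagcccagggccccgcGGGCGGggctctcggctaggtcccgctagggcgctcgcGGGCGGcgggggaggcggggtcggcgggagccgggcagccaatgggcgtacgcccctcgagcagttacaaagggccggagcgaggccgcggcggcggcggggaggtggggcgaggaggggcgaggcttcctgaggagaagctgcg
Tgfbr2 promoter, GRCm38.p6 chr9:116175314-116175613, minus strand: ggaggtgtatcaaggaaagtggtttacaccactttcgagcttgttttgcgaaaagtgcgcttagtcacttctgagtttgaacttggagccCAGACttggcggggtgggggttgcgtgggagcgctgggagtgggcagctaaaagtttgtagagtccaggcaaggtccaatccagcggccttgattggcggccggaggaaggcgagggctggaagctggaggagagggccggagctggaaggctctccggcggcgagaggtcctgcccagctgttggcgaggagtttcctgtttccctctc
Tgfbi promoter, GRCm38.p6 chr13:56609336-56609635, plus strand: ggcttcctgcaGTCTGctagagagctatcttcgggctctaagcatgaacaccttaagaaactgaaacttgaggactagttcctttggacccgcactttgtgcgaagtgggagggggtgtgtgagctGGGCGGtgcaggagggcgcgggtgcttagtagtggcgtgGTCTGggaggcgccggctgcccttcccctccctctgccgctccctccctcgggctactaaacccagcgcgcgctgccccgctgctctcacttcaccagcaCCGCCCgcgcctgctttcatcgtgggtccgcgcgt

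The Tgfbr2 window holds 1 SMAD-binding core and no GC box, the Tgfbr1 window holds 2 GC boxes and no such core, and the Tgfbi window holds 2 of each. Guanine plus cytosine make up 59.0% of the Tgfbr2, 74.67% of the Tgfbr1 and 63.33% of the Tgfbi window, beside a median of 52.67% over all promoter windows. RefSeq promoter windows were matched for 6 of the 10 genes, 7 windows in all. The SMAD-binding core was found in windows of Tgfb2, Tgfbr1 (its second window), Tgfbr2 and Tgfbi, a motif held by 49.6% of 32851 promoter windows of the same length. The GC box was found for Tgfb1, Tgfbr1, Smad3 and Tgfbi, against 35.7% of all windows. The letters TATAAA, which spell the promoter element of that name, were found for Tgfb2, against 13.6% of all windows. The AP-1 site TGANTCA was in 0 of the 7 windows, against 7.81% of all. All motifs were searched on both strands. A match is a run of letters and not a shown binding site.

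**Figure D1:**
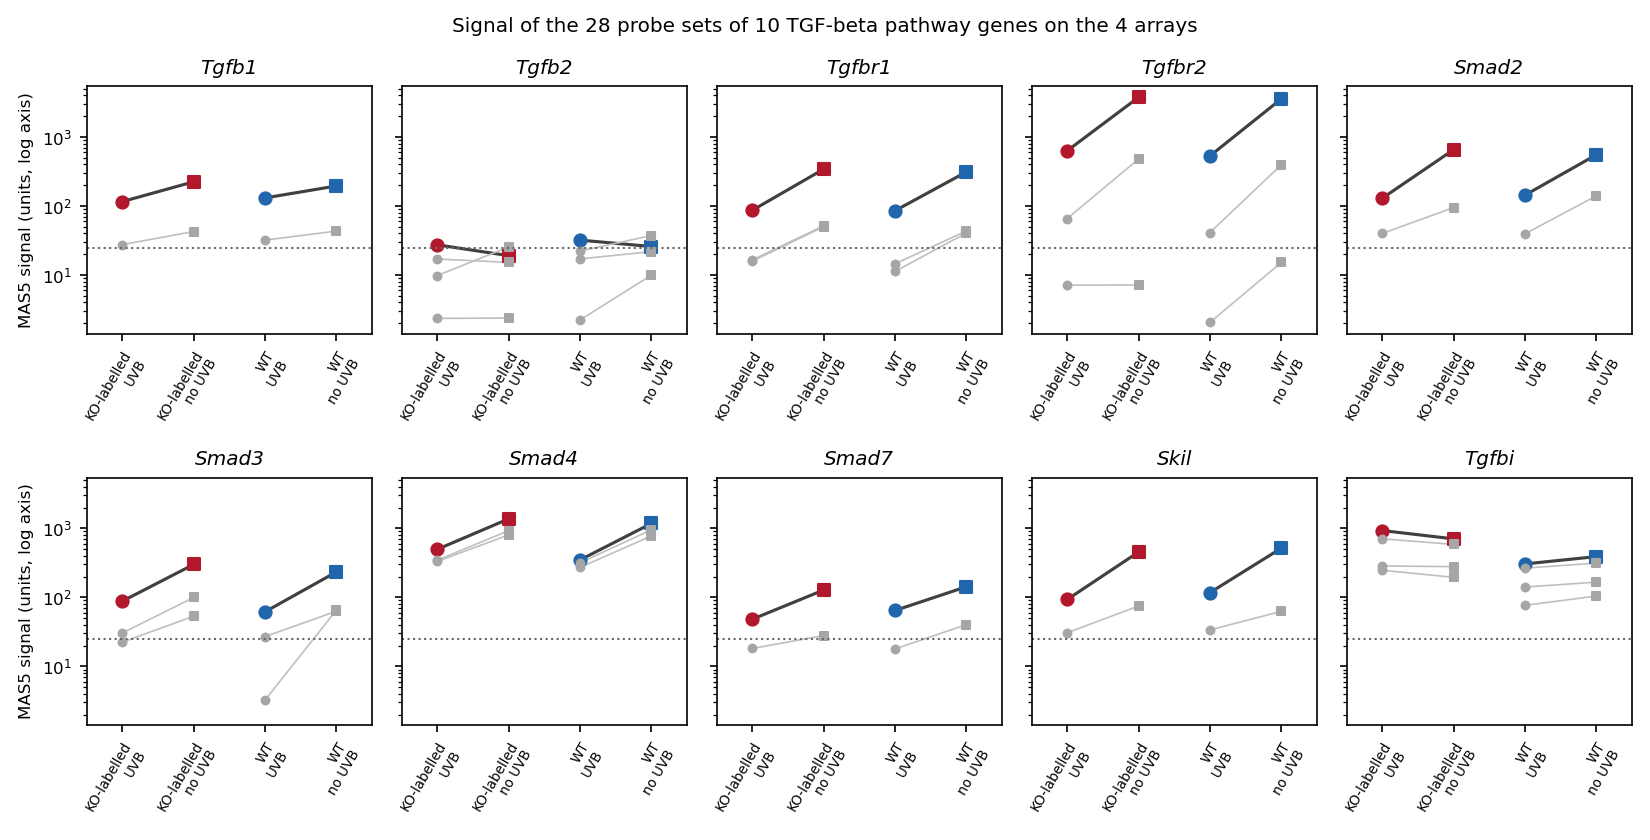
MAS5 signal (units, log axis) of all 28 probe sets on the 4 arrays, with circles for UVB and squares for no UVB, red for KO-labelled and blue for WT cells, large symbols for the brightest probe set of a gene, grey for its others, and a dotted line at the floor of 24.9 units. The lines join the UVB and the unirradiated array of a genotype and stand lower at the UVB end for both receptors, Smad2, Smad3, Smad4 and Skil, while Tgfbi stands higher on both KO-labelled arrays than on both WT arrays.

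UVB was set against no irradiation within each genotype, to ask how the pathway's transcripts stood 4 h after irradiation. The receptors, the activating SMADs and Skil were all lower after UVB in both genotypes, Tgfbr2 by the most, and Tgfb2 and Tgfbi were not. Taking each gene by its brightest probe set, 7 of 10 genes were at least 2-fold lower after UVB in KO-labelled cells, where 39.3% of the 11379 genes tested were, and 7 of 10 were in WT cells, where 34.8% of all genes were. After quantile normalization these counts were 3 in KO-labelled and 4 in WT cells (8.38% and 9.66% of all genes), and after median centring 3 and 2 (6.71% and 7.58%). With the deposited scaling none of the 10 was higher by 2-fold or more, which 0.167% of all genes were in KO-labelled and 0.58% in WT cells. The median log2 difference of the 10 was -1.62 in KO-labelled and -1.81 in WT cells, beside -0.82 and -0.70 over all genes tested. The decline after UVB was thus common on these arrays, and each value below is read against those medians. In bulk RNA, fewer cells of a type and less RNA per cell cannot be told apart.

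An additive limma model of irradiation and genotype over all 4 arrays was used as the test across genotypes. It has 1 residual degree of freedom, and empirical Bayes adds a median of 8.13 prior degrees of freedom from genes of similar signal. Its SEs and p-values thus rest mostly on the disagreement between the genotypes' responses pooled over many genes. They do not measure the spread between cultures. With Benjamini-Hochberg adjustment over 11379 genes at 0.05, 8 of the 10 genes fell after UVB and 0 rose, where 69.4% of all genes fell and 0.703% rose. After quantile normalization 6 of the 10 fell and 1 rose (20.6% and 20.4% of all genes), and after median centring of the arrays 6 fell and 2 rose (15.6% and 37.1% of all genes). The genes that fell under all 3 scalings were Tgfbr1, Tgfbr2, Smad2, Smad3, Smad4 and Skil.

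Of the ligands, Tgfb1, the main TGF-beta isoform of most tissues, had 115.3 units after UVB and 223.1 units without irradiation in KO-labelled cells, against 130.2 units after UVB and 194.0 units without irradiation in WT cells. Both UVB arrays were lower than both unirradiated arrays, by 1.94-fold in KO-labelled and 1.49-fold in WT cells. The fitted difference was -0.76 in log2 units (SE 0.18, adjusted p = 0.00426 by limma) with the deposited scaling, but it turned to 0.29 after quantile normalization (adjusted p = 0.215) and to 0.34 after median centring (adjusted p = 0.144), so its direction rests on the scaling. A second Tgfb1 probe set, 1445360_at, was 1.54-fold lower in KO-labelled and 1.35-fold lower in WT cells. Tgfb2, a second ligand isoform, was near the floor, with 27.2 units after UVB and 19.0 units without irradiation in KO-labelled cells, against 31.9 units after UVB and 25.7 units without irradiation in WT cells. Its value in unirradiated KO-labelled cells lay below the floor, and the fitted UVB difference of 0.22 did not pass (limma adjusted p = 0.523), although it passed after median centring at 0.79 (adjusted p = 0.0414). The other 3 Tgfb2 probe sets had mean signals below the floor.

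Of the receptors Tgfbr1 and Tgfbr2, Tgfbr2 had the larger decline. Among the other receptors described below, Acvr1b had a larger fitted decline (-2.79) and Acvr1 a similar one (-2.62). Tgfbr2 read 629.3 units after UVB and 3742 units without irradiation in KO-labelled cells, against 529.3 units after UVB and 3551 units without irradiation in WT cells. The pair of unirradiated arrays lay close together and far above the pair of UVB arrays, a difference of 5.95-fold in KO-labelled and 6.71-fold in WT cells. A lower UVB difference was found for 2.36% of all genes tested in KO-labelled cells and for 1.53% in WT cells. Of the 776 genes with a mean signal between 1600 and 6400 units, the range that holds Tgfbr2, 8.63% were at least 2-fold lower after UVB in KO-labelled and 6.83% in WT cells. The fitted difference was -2.66 in log2 units (SE 0.10, adjusted p = 1.57e-06 by limma), and it stayed at -2.11 after quantile normalization and at -1.56 after median centring.

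The second Tgfbr2 probe set, 1425444_a_at, gave 65.5 units after UVB and 477.0 units without irradiation in KO-labelled cells, against 41.1 units after UVB and 393.0 units without irradiation in WT cells. That is 7.29-fold and 9.57-fold lower after UVB, in the same direction as the brightest probe set in both genotypes. The third, 1422019_at, was below the floor on all 4 arrays. Tgfbr1, the kinase that passes the signal on to Smad2 and Smad3, had 86.2 units after UVB and 340.1 units without irradiation in KO-labelled cells, against 85.0 units after UVB and 309.9 units without irradiation in WT cells. The UVB arrays of the genotypes nearly coincided and stood 3.95-fold (KO-labelled) and 3.65-fold (WT) below their unirradiated arrays, with a fitted difference of -1.92 (SE 0.17, limma adjusted p = 1.43e-05). Both further Tgfbr1 probe sets were below the floor after UVB, so only bounds can be given. For 1420893_a_at the decline was at least 2.06-fold in KO-labelled and at least 1.74-fold in WT cells, and for 1420894_at it was at least 1.62-fold in WT cells.

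Smad2, a receptor-activated SMAD, had 128.8 units after UVB and 651.2 units without irradiation in KO-labelled cells, against 142.9 units after UVB and 549.2 units without irradiation in WT cells. It was 5.06-fold lower after UVB in KO-labelled and 3.84-fold lower in WT cells, and its second probe set, 1442062_at, was 2.38-fold and 3.56-fold lower. The order of the genotypes therefore differed between the 2 probe sets. Smad3, the other receptor-activated SMAD and the one that binds DNA directly, had 87.9 units after UVB and 299.9 units without irradiation in KO-labelled cells, against 61.8 units after UVB and 233.4 units without irradiation in WT cells. It was 3.41-fold lower after UVB in KO-labelled and 3.78-fold lower in WT cells, and all 3 of its probe sets were lower in both genotypes. For Smad4, the partner shared by all receptor-activated SMADs, the signal was 496.3 units after UVB and 1371 units without irradiation in KO-labelled cells, against 348.1 units after UVB and 1176 units without irradiation in WT cells. Its 3 probe sets agreed closely, at 2.42- to 2.76-fold lower in KO-labelled and 2.86- to 3.38-fold lower in WT cells. The fitted UVB differences were -2.14 for Smad2 (SE 0.16, limma adjusted p = 6.57e-06), -1.84 for Smad3 (SE 0.18, adjusted p = 2.40e-05) and -1.61 for Smad4 (SE 0.12, adjusted p = 7.70e-06). Under median centring the single-array differences of Tgfbr1, Smad3 and Smad4 shrank to under 2-fold in both genotypes, although their fitted declines still passed.

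The inhibitors were lower after UVB as well. Skil had 93.2 units after UVB and 453.8 units without irradiation in KO-labelled cells, against 117.1 units after UVB and 515.8 units without irradiation in WT cells. WT was a little above KO-labelled in each condition, and the UVB arrays were 4.87-fold lower in KO-labelled and 4.40-fold lower in WT cells, with a fitted difference of -2.21 (SE 0.15, limma adjusted p = 5.57e-06). The second Skil probe set, 1422054_a_at, was 2.44-fold and 1.87-fold lower. Smad7, itself a target of TGF-beta signalling that feeds back on the receptors, had 48.1 units after UVB and 127.6 units without irradiation in KO-labelled cells, against 64.5 units after UVB and 142.5 units without irradiation in WT cells. It was 2.65-fold lower in KO-labelled and 2.21-fold lower in WT cells. Its fitted decline of -1.28 (SE 0.21, limma adjusted p = 0.000534) did not pass after quantile normalization (-0.19, adjusted p = 0.539) or median centring (-0.18, adjusted p = 0.526). Its second probe set, 1443771_x_at, was below the floor after UVB.

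Over probe sets rather than genes, 16 of the 24 that averaged at least the floor were lower by 2-fold or more after UVB in KO-labelled cells (40.5% of all probe sets tested) and 13 of 24 in WT cells (35.4%). In limma over all probe sets, 17 of the 24 fell, where 71% of all probe sets did. Below zero were 19 of the 24 in KO-labelled and 23 of 24 in WT cells. That sign was common to most of the array. In KO-labelled cells 96.7% of all genes tested lay below 0.13, and in WT cells 97.0% lay below 0.31. The probe sets above zero in KO-labelled cells were those of Tgfb2 and Tgfbi.

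**Figure D2:**
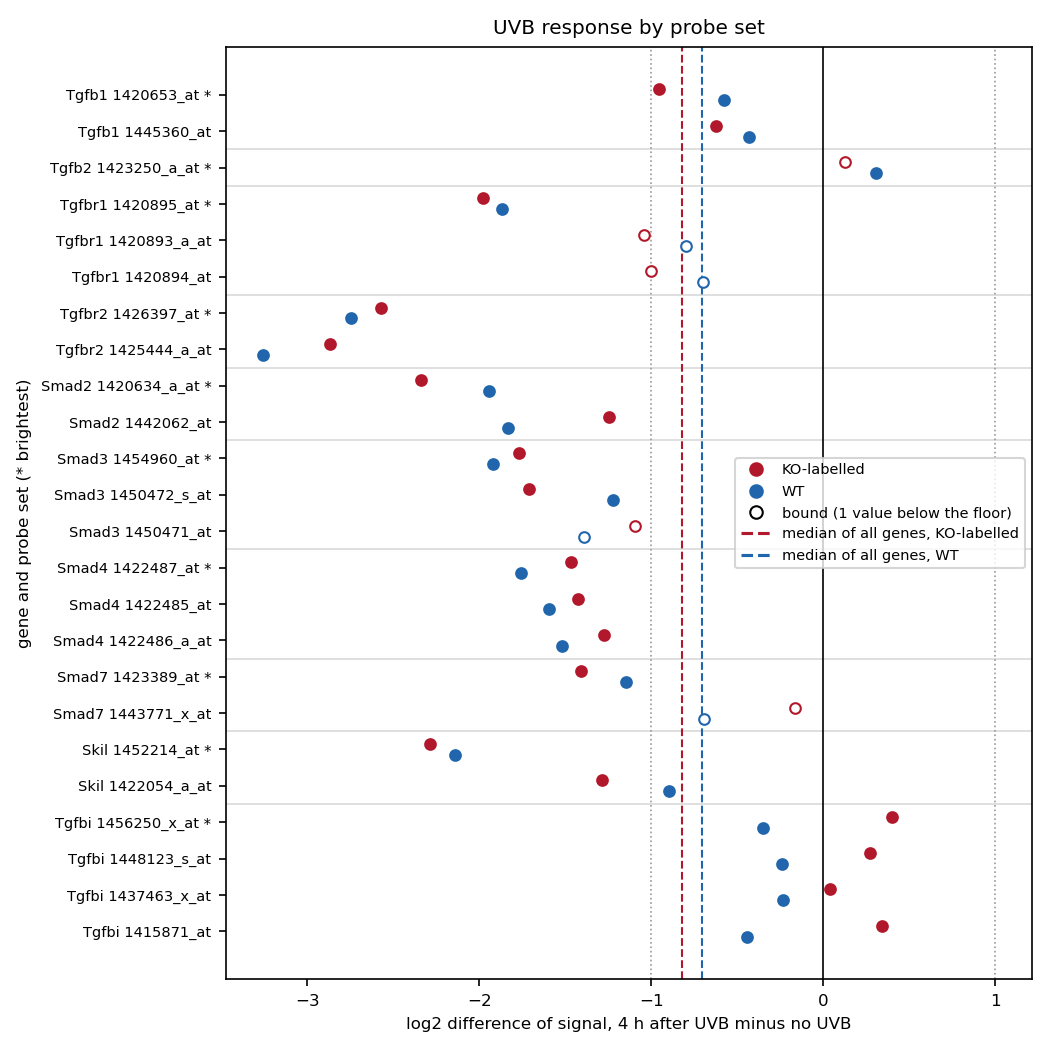
Log2 difference of signal, 4 h after UVB minus no UVB, for the 24 probe sets that averaged at least the floor, in KO-labelled (red) and WT (blue) cells, with 1 array per group and so no error bars. Open circles are bounds, dotted lines mark 2-fold, and dashed lines mark the medians of all genes tested at -0.82 (KO-labelled) and -0.70 (WT); both measured Tgfbr2 probe sets lie below -2.5, and the 4 Tgfbi probe sets lie right of zero in KO-labelled and left of it in WT cells.

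**Figure D3:**
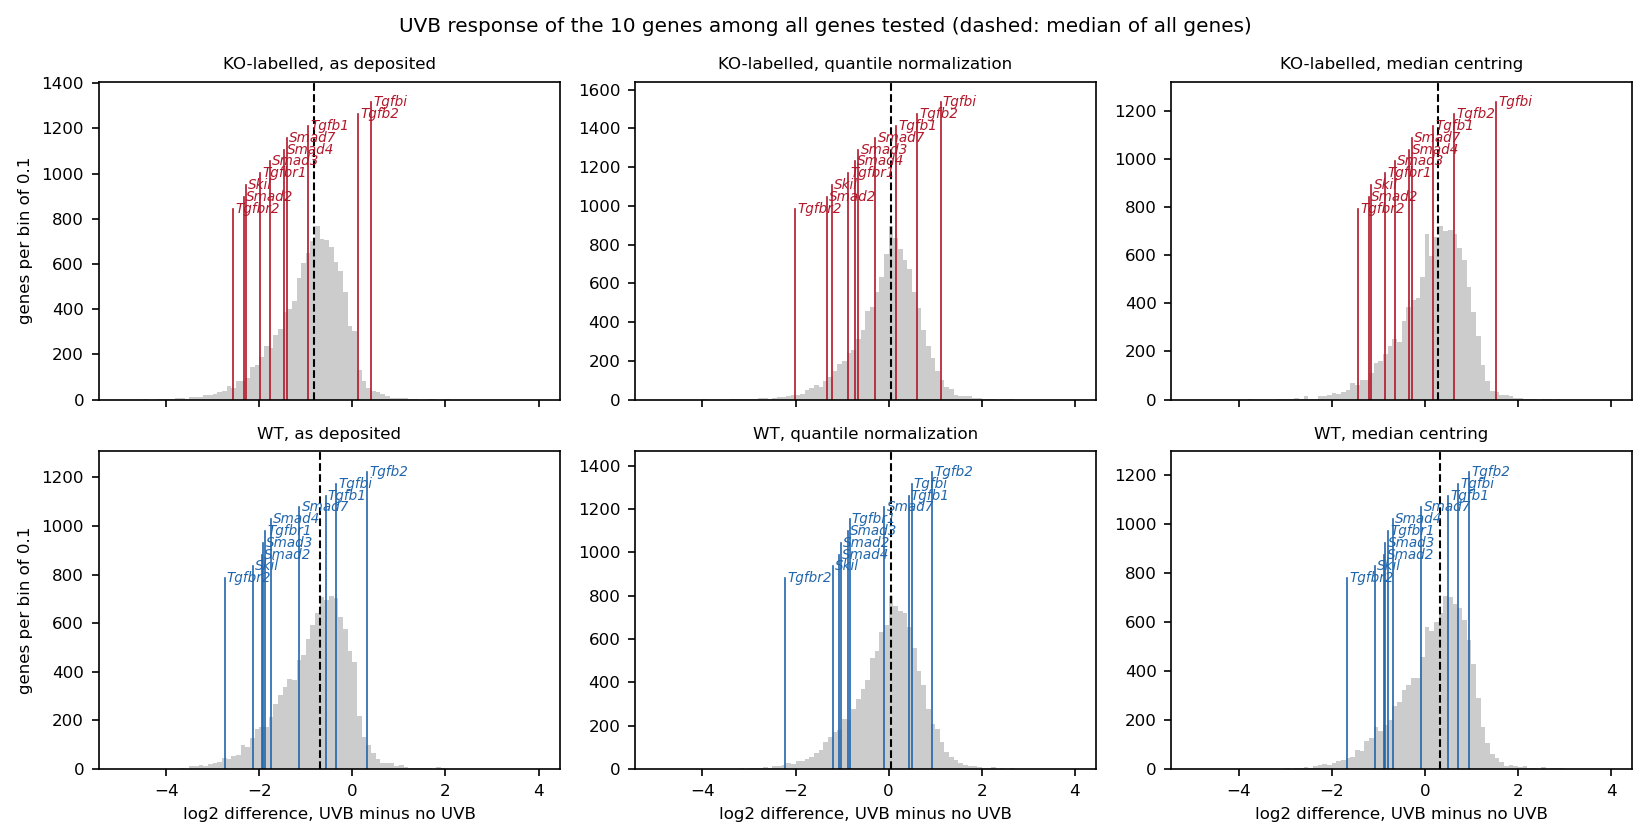
Number of genes per bin of 0.1 (y axis) by log2 difference, UVB minus no UVB (x axis), in KO-labelled (top) and WT cells (bottom), with the values as deposited, after quantile normalization and after median centring, the 10 genes as labelled lines and the median of all genes tested as a dashed line. Tgfbr2 lies in the low tail in all 6 panels, while Tgfb1 and Smad7 move with the bulk of genes and cross zero or come close to it.

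The KO-labelled arrays were set against the WT arrays in each condition, to ask which pathway transcripts differed between genotypes. Tgfbi was the member that did. Also called beta-ig-h3, it encodes a secreted matrix protein first found as a TGF-beta-induced gene. Its brightest probe set had 928.3 units after UVB and 703.4 units without irradiation in KO-labelled cells, against 304.7 units after UVB and 389.2 units without irradiation in WT cells. Both KO-labelled arrays lay above both WT arrays, by 3.05-fold after UVB and 1.81-fold without irradiation. After UVB, 0.114% of all genes tested had a higher difference between the genotypes, and without irradiation 3.22% had. The share after UVB was 0.55% with quantile normalization and 0.27% with median centring. The probe set 1415871_at, which has no suffix for shared sequence, gave 246.9 units after UVB and 194.9 units without irradiation in KO-labelled cells, against 76.6 units after UVB and 104.4 units without irradiation in WT cells.

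All 4 Tgfbi probe sets were higher in KO-labelled cells, by 2.02- to 3.22-fold after UVB and by 1.67- to 1.87-fold without irradiation. After UVB, 1 of the 10 genes was higher by 2-fold or more in KO-labelled cells (1.41% of all genes tested) and 0 were lower by that much (1.47%), and over probe sets 4 of 24 were at least 2-fold higher (1.36%). Without irradiation 0 of 10 genes were at least 2-fold higher (1.63%) and 0 lower (0.729%). The fitted genotype difference of Tgfbi was 1.23 in log2 units (SE 0.17, adjusted p = 0.00995 by limma), higher in KO-labelled cells in both conditions, and it was the only one of the 10 to pass, where 0.967% of all genes were higher and 0.642% lower. Over all probe sets, 4 of the 24 passed as higher (1.37%), all of them Tgfbi. The call was lost when a gene's probe sets were averaged (adjusted p = 0.229), without the intensity trend (adjusted p = 0.282) and with genotype alone in the model (adjusted p = 1), settings under which 0 genes of the array passed for genotype. With 1 value per gene, the fitted difference stayed between 1.07 and 1.29 under all settings run. With all probe sets as features, the Tgfbi probe sets had fitted differences from 0.88 to 1.295.

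The other 9 genes lay within 1.43-fold between genotypes in both conditions, taking each by its brightest probe set. Among them the largest fitted genotype differences were those of Smad3 (0.44, limma adjusted p = 0.254) and Smad4 (0.37, adjusted p = 0.178), and neither passed. For Tgfbr2 the fitted genotype difference was 0.16 (SE 0.10, limma adjusted p = 0.464) and for Tgfbr1 0.08 (SE 0.17, adjusted p = 0.864). Those of Smad7 and Skil were negative, at -0.29 and -0.26, and did not pass (limma adjusted p = 0.525 and 0.430). The median difference over the 10 genes was -0.06 after UVB and 0.17 without irradiation, beside 0.05 and 0.16 over all genes tested.

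Markers of fibroblasts, which make Tgfbi in many tissues, also differed between the genotypes. Of 10 fibroblast markers, 10 were higher in KO-labelled cells after UVB and 9 without irradiation. Of all genes tested, 53.6% lay above 0.020 after UVB and 78.4% lay above -0.048 without irradiation, so the sign alone was common. The median log2 differences of the fibroblast markers were 0.75 and 0.94, beside 0.05 and 0.16 over all genes tested. Single markers ranged from 0.07 to 0.90 after UVB and from -0.17 to 1.29 without irradiation. In limma 6 of the 10 markers passed as higher and 0 as lower, where 0.967% and 0.642% of all genes did. The fibroblast markers' summed signal, weighted to bright probe sets, was 5143 units after UVB and 7536 units without irradiation in KO-labelled cells. In WT cells it was 3049 units after UVB and 3868 units without irradiation. None of the 10 was at 0, and 9 were at or above the floor on all arrays. Among the markers that passed were Col1a1, Col1a2, Col3a1, Thy1 and Vim. The suprabasal keratins Krt10 and Krt1 were also higher in KO-labelled cells, by 1.10 (limma adjusted p = 0.00698) and 0.89 (adjusted p = 0.0360), while the basal keratins Krt5 and Krt14 had fitted differences of -0.02 and -0.03 that did not pass (adjusted p = 0.909 and 0.903). Of 7 melanocyte markers 0 passed for genotype. Their median log2 differences were 0.26 after UVB and 0.55 without irradiation, also above the 0.05 and 0.16 over all genes tested. The melanocyte markers' summed signal, again weighted to bright probe sets, was 5620 and 8582 units in KO-labelled cells after UVB and without irradiation. In WT cells it was 4823 and 6148 units. Like that of Tgfbi, these genotype calls were lost in the 3 settings under which 0 genes passed. The part of these cell types in the Tgfbi difference was not tested.

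**Figure D4:**
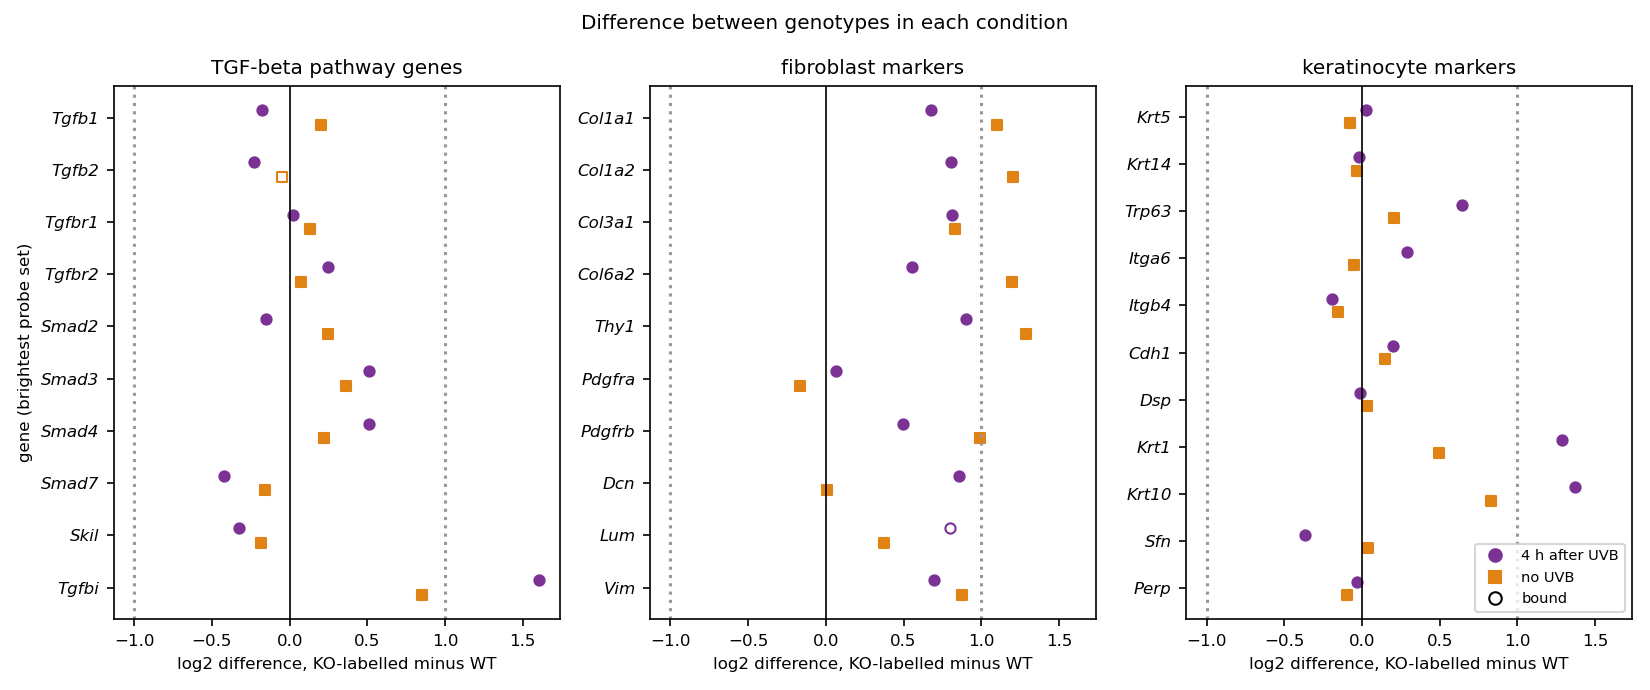
Log2 difference of signal, KO-labelled minus WT, 4 h after UVB (purple circles) and without UVB (orange squares) for the 10 pathway genes, 10 fibroblast markers and 11 keratinocyte markers, by the brightest probe set, with 1 array per group; open symbols are bounds and dotted lines mark 2-fold. Tgfbi lies at 1.61 after UVB and 0.85 without UVB, the other pathway genes lie near zero, the fibroblast markers lie mostly between 0.5 and 1.3, and Krt1 and Krt10 stand right of the other keratinocyte markers.

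The difference of the 2 UVB responses was then taken, KO-labelled minus WT, to ask whether the genotype altered the response. It could not be tested, since the 4 arrays leave no residual degree of freedom for it. For 0 of the 10 genes was the response difference at least 2-fold, where 1.34% of all genes tested passed that size upwards and 2.94% downwards. The median of the 10 was -0.13, beside -0.08 over all genes. Tgfbi had the highest value, 0.75, with a UVB difference of 0.40 in KO-labelled cells (1.32-fold higher) and of -0.35 in WT cells (1.28-fold lower). Its 4 probe sets gave response differences of 0.27 to 0.79, all with a UVB difference above zero in KO-labelled and below zero in WT cells. After quantile normalization and median centring the brightest Tgfbi probe set was higher after UVB in both genotypes, by 1.12 and 1.53 in KO-labelled and 0.49 and 0.72 in WT cells, so the opposite signs rest on the deposited scaling. Smad2 had the lowest response difference, -0.40, and its second probe set gave 0.58.

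The wider pathway was read from 5 lists of other genes, of which 59 of 61 were on the array and 53 were tested. In limma 40 of the 53 fell after UVB and 2 rose, where 69.4% and 0.703% of all genes did, and after quantile normalization 26 of 52 fell and 10 rose (20.6% and 20.4% of all genes). After median centring 20 of 52 fell and 11 rose (15.6% and 37.1%). At least 2-fold lower after UVB were 32 of 53 in KO-labelled and 27 of 53 in WT cells, beside 39.3% and 34.8% of all genes, with medians of -1.39 and -1.01, beside -0.82 and -0.70. Most of the other receptors and the other SMADs and partners fell under each scaling, all repressors and ligases fell with the deposited scaling only, and the target genes were mixed.

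Of 11 other receptors and co-receptors, 9 fell after UVB with the deposited scaling, where 69.4% of all genes fell. Under each of the other scalings 7 of 10 fell, beside 20.6% (quantile) and 15.6% (centring) of all genes. Acvr1b, a type I activin receptor, had 114.6 units after UVB and 726.6 units without irradiation in KO-labelled cells, against 74.7 units after UVB and 565.7 units without irradiation in WT cells. That is 6.34-fold lower in KO-labelled and 7.57-fold lower in WT cells (fitted -2.79, limma adjusted p = 2.92e-06). Acvr1 and Bmpr1a, type I receptors of the BMP branch, were 5.51- and 4.08-fold lower in KO-labelled and 6.83- and 6.89-fold lower in WT cells, and Acvr2a, a type II activin receptor, was 3.89-fold and 4.48-fold lower. The co-receptor Tgfbr3, or betaglycan, which presents TGF-beta ligand to Tgfbr2, was 3.01-fold lower in KO-labelled and 5.14-fold lower in WT cells. It had 70.5 units in KO-labelled and 33.9 units in WT cells after UVB, a 2.08-fold difference, and its genotype effect did not pass limma (0.67, adjusted p = 0.194).

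Of the other SMADs and partners, 6 of 6 fell with the deposited scaling (69.4% of all genes). Under each of the other scalings 5 of 6 fell, beside 20.6% (quantile) and 15.6% (centring) of all genes. Smad1, a SMAD of the BMP branch, was 4.35-fold lower after UVB in KO-labelled and 4.30-fold lower in WT cells. The coactivators Ep300 and Crebbp, histone acetyltransferases that SMADs recruit, were 4.66- and 3.56-fold lower in KO-labelled and 5.10- and 4.66-fold lower in WT cells. Trim33, a ubiquitin ligase that binds SMADs, was 3.46-fold and 4.79-fold lower. Of the repressors, ligases and phosphatases, 11 of 11 fell with the deposited scaling (69.4% of all genes). After quantile normalization 4 fell (20.6% of all genes), and after median centring 3 fell (15.6%). Those 3 scalings shared the declines of Pmepa1, Rnf111 and Smurf1. Pmepa1, a TGF-beta-induced gene whose product holds back SMAD activation, was 8.25-fold lower in KO-labelled and 5.55-fold lower in WT cells, with 52.5 units after UVB and 433.3 units without irradiation in KO-labelled cells, against 91.4 units after UVB and 507.2 units without irradiation in WT cells. Rnf111, or Arkadia, a ubiquitin ligase that degrades SnoN and Smad7, was 4.50-fold and 4.12-fold lower. Smurf1, a ligase that degrades receptors and SMADs, was 3.96-fold and 3.21-fold lower. Tgif2, a repressor of SMAD-driven transcription, was 3.02-fold and 2.76-fold lower, and its decline did not pass under the other 2 scalings (adjusted p = 0.104 and 0.0926).

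Of 12 tested genes for ligands, activins and latency, 9 fell and 0 rose with the deposited scaling (69.4% and 0.703% of all genes). After quantile normalization 7 fell and 3 rose (20.6% and 20.4%), and after median centring 3 fell and 3 rose (15.6% and 37.1%). Those named here are Thbs1, encoding thrombospondin 1, which can activate latent TGF-beta, Inhbb, an activin subunit, Itgb8 and Inhba. Thbs1 was 5.75-fold lower after UVB in KO-labelled and 4.13-fold lower in WT cells, and Inhbb 4.44-fold and 4.08-fold lower. Itgb8, an integrin subunit that helps release TGF-beta from its latent complex, was below the floor after UVB, a decline of at least 2.77-fold in KO-labelled and at least 3.13-fold in WT cells. Inhba, the other activin subunit, was 2.64-fold and 2.02-fold lower, and its fitted decline of -1.21 did not pass after median centring (-0.11, adjusted p = 0.470). Follistatin (Fst), which binds and neutralises activin, differed between the genotypes after UVB: it had 1098 units after UVB and 4276 units without irradiation in KO-labelled cells, against 3013 units after UVB and 4587 units without irradiation in WT cells. The KO-labelled UVB array was the low one of the 4, 2.74-fold below WT after UVB, while the genotype effect over both conditions did not pass limma (-0.78, adjusted p = 0.154).

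**Figure D5:**
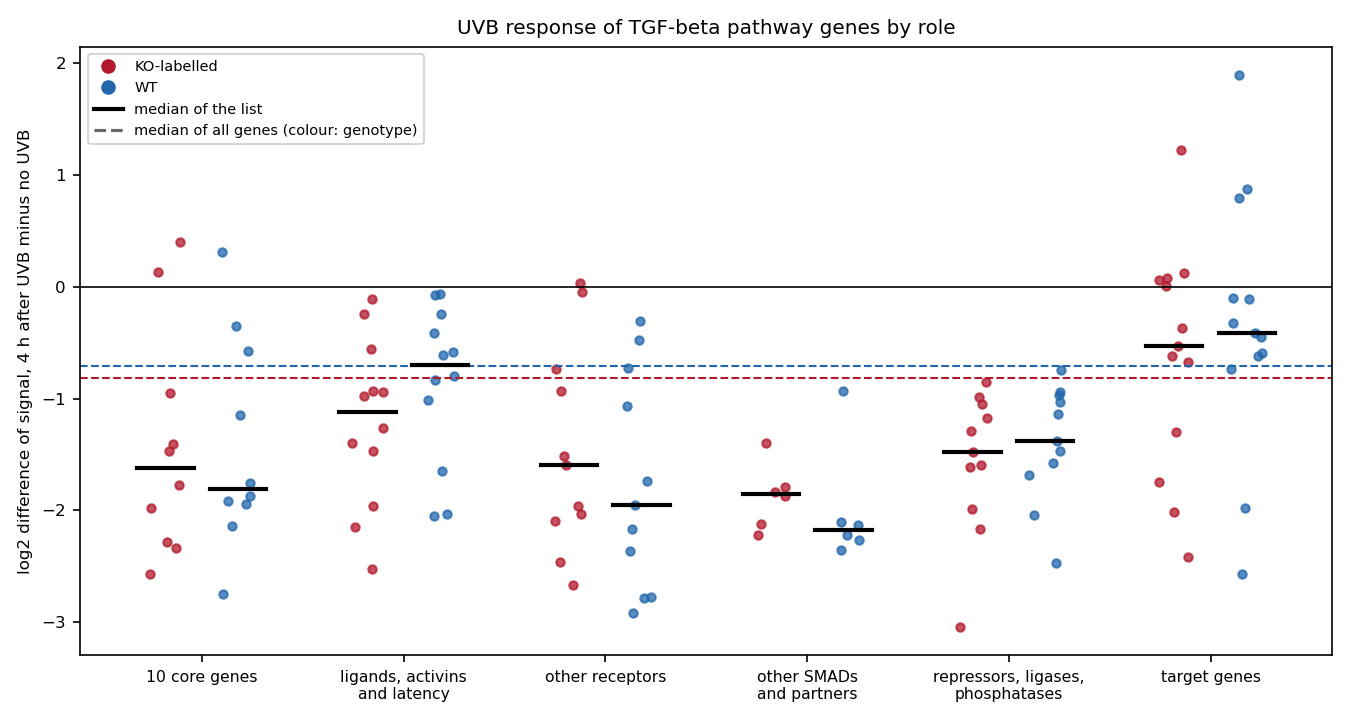
Log2 difference of signal, 4 h after UVB minus no UVB, in KO-labelled (red) and WT (blue) cells for the 10 core genes and 5 lists of other pathway genes, each point 1 gene tested, with black bars at the list medians and dashed lines at the medians of all genes tested, -0.82 in KO-labelled and -0.70 in WT cells. The receptor and SMAD lists have medians between -1.59 and -2.18, the target genes have medians of -0.53 and -0.41, and points spread sideways only to separate them.

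Target genes of the pathway did not move as one. Of 13 tested, 5 fell and 2 rose with the deposited scaling, where 69.4% and 0.703% of all genes did. After quantile normalization 3 fell and 6 rose (20.6% and 20.4% of all genes), and after median centring 2 fell and 7 rose (15.6% and 37.1%). Snai2, a transcription factor of epithelial plasticity, was 5.35-fold lower after UVB in KO-labelled and 5.93-fold lower in WT cells, with 778.8 units after UVB and 4169 units without irradiation in KO-labelled cells, against 678.7 units after UVB and 4025 units without irradiation in WT cells. Klf10, an early TGF-beta-induced transcription factor, was 3.34-fold and 3.93-fold lower. Both fell under all 3 scalings. Tsc22d1, a TGF-beta-stimulated gene, went the other way, with 5359 units after UVB and 2298 units without irradiation in KO-labelled cells, against 7347 units after UVB and 1975 units without irradiation in WT cells, 2.33-fold and 3.72-fold higher, and it rose under all 3 scalings. Cdkn1a, the cell cycle inhibitor p21 that both TGF-beta and p53 induce, also passed as higher, with a fitted difference of 0.50 (limma adjusted p = 0.0150). It was 1.09-fold higher in KO-labelled and 1.84-fold higher in WT cells, a response difference of -0.75 that was not tested. Its call was lost with the mean over probe sets (0.17, adjusted p = 0.478), without the intensity trend (adjusted p = 0.114) and with irradiation alone in the model (adjusted p = 0.0914).

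Between genotypes, 2 of the 53 genes passed limma as higher in KO-labelled cells and 0 as lower, where 0.967% and 0.642% of all genes did. Both were matrix genes on the target list. They were Col1a1, a chain of type I collagen, at 0.89 (limma adjusted p = 0.0214), and Fn1, fibronectin, at 0.68 (adjusted p = 0.0357). Col1a1 is also one of the fibroblast markers above, and both calls were lost in the same 3 settings. Col1a1 was 2.15-fold and Ccn2, a matrix-associated growth factor modulator, 2.07-fold higher in KO-labelled cells without irradiation, while after UVB Ccn2 had 512.0 units in KO-labelled and 598.3 units in WT cells.

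The genes whose pattern over the 4 arrays was most like that of a member were found among 9488 genes at or above the floor on all arrays, by Euclidean distance between log2 signals, each centred on its own mean. For Tgfbr2 these were Snrk at 0.055, Jarid2 at 0.074 and Lrrc1 at 0.086. For Tgfbi they were Fhit at 0.18, the keratin gene Krt10 at 0.18 and Capn6 at 0.29. With 4 arrays, these distances describe the same 4 libraries and no more.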

How the data were processed

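RNA of 4 samples was measured on 1 array each, grouped by the genotype and stress labels. MAS5 made 1 signal per probe set, per the submitters' processing notes, and the deposited table gives it as linear intensity. The scaling target and genome build: not given in the sources used here. Since the trimmed means of the arrays were unequal, other scalings were tried.

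Of 45101 probe sets 64 are controls, 34945 have 1 gene symbol in the platform annotation, 932 have several and 9160 have none; only those with 1 symbol were used. All 10 genes matched RefSeq. The brightest probe set on average stands for its gene. Values below the floor of 24.9 units were raised to it, and a fold against such a value is written "at least". Of the 28 probe sets of the 10 genes, 24 averaged at least the floor and 19 had all 4 arrays there; 9 of the 10 genes were at or above it on all arrays.

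Differences were taken on the log2 scale of the deposited intensity and called at 2-fold. The 11379 genes that averaged at least the floor were tested with limma 3.58.1 in R 4.3.3. The model was additive, with empirical Bayes and an intensity trend, Benjamini-Hochberg adjustment over all genes and adjusted p under 0.05. A run on simulated data checked only that the fit recovers changes put in. That simulation had equal noise for all genes, no floor and no general decline, so it does not test the p-values given here. Tables were made with Python 3.11.15 and pandas 2.3.3. Other pathway genes were named when at least 2-fold lower or higher in both genotypes after UVB, at most 4 per list and direction, or at least 2-fold different between genotypes in either condition; Fn1 and Cdkn1a were named after their values were seen, as were the example markers. The 10 genes, the lists and the tests were chosen with earlier results of these data known. Promoter sequence is from RefSeq, build GRCm38.p6. The alternatives were quantile normalization, median centring, floors at the 25th and 75th percentile, the mean over probe sets, leaving out probe sets with shared-sequence suffixes, all probe sets as features, thresholds of 1.5-fold and 3-fold, and limma with no trend or with 1 factor. Some listed genes are not analysed here.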

Additional observations from a re-analysis of the deposited data

Results flagged for a closer look

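The UVB difference of Tgfbi had opposite signs in the genotypes on all 4 of its probe sets, above zero in KO-labelled and below zero in WT cells. The response difference, KO-labelled minus WT, was 0.75 on the log2 scale for 1456250_x_at, 0.51 for 1448123_s_at, 0.27 for 1437463_x_at and 0.79 for 1415871_at. The probe sets share the same 4 RNA samples and in part the same transcript sequence, so they are not replicates. The difference was not tested, since each group has 1 array, and the opposite signs were not seen after quantile normalization or median centring for the brightest probe set.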

How the results depend on the processing

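No paired analysis was possible because each group has 1 array and the labels carry no replicate numbers, and leaving out an array leaves no residual degree of freedom. Of 116 recomputed counts, 102 stayed within 1.5 times the reported one. Many reported counts were 0, and a 0 that stayed 0 was scored as unchanged. Counts above 0 were compared as shares where all probe sets were the features. At least 2-fold lower after UVB were 3 of 10 genes in KO-labelled cells after quantile normalization (8.38% of all genes) and 3 after median centring (6.71%), with 1 higher (Tgfbi) under each (4.06% and 8.71%), and 4 and 2 in WT cells (9.66% and 7.58%). After irradiation 1 gene rose with quantile normalization (Tgfbi) and 2 rose with centring (Tgfbi and Tgfb2). At 1.5-fold, 1 gene was higher in KO-labelled cells without irradiation (Tgfbi, 0.85) and 1 had a higher response difference (Tgfbi, 0.75). Larger values were held by 3.22% and 3.10% of all genes tested. The shares of all genes at 1.5-fold were not computed. Higher by genotype were 0 genes with the mean over probe sets, 0 without the trend, 0 with only the tested factor, and 4 of 24 probe sets; limma called 0 genes of the whole array in the first 3. Recomputed were also 484 single-gene values and list medians, and 14 of the fitted effects among them changed sign. For irradiation these were Tgfb1 at 0.29 (quantile) and 0.34 (centring), Tgfb2 at -0.021 (mean over probe sets), and Tgfbi at -0.028 (mean) and -0.052 (without suffixed probe sets). For genotype they were Tgfb1 at -0.11, -0.12 and -0.053 (quantile, centring, mean), Tgfbr1 at -0.043 and -0.053 (quantile, centring), and Smad2 at -0.059, -0.082, -0.11 and -0.27 (quantile, centring, mean, without suffixed probe sets). Apart from Tgfb1 for irradiation, none of these had passed the test. Single-array differences under 2-fold were not scored for a change of sign, and some turned. For Tgfb1 the UVB difference went from -0.95 to 0.16 (quantile) and 0.18 (centring) in KO-labelled cells. In WT cells it went from -0.58 to 0.43 and 0.49. That of Tgfbi in WT cells went from -0.35 to 0.49 and 0.72. The cause was not tested. Signal near the floor limits Tgfb2 and the dim probe sets of Tgfbr1, Smad3 and Smad7.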
